A study of Mus musculus with 4 samples.

Results

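The genes described here are the structural genes of the mitochondrial respiratory chain and ATP synthase, measured in 4 single-cell libraries of mouse blood stem and progenitor cells. They were chosen by symbol only: names beginning with Nduf, Uqcr, Cox4 to Cox8 or Atp5, the 4 Sdh genes, and the protein-coding genes of mitochondrial DNA (mtDNA), with 1 pseudogene name left out. This gave 106 of the 32285 genes in the files, 93 of them in the nucleus and 13 in mtDNA, and the rule itself uses no measured value.

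Bone marrow cells were sorted as CD45.2+, without lineage markers, and with Sca1 and Kit on the surface (LSK cells, which include blood stem cells and early progenitors), 10 weeks after transplantation. Each genotype gave a single library, and the genotypes were control, Mll3 deletion, Mll4 deletion, and deletion of both. Mll3 and Mll4 are histone H3 lysine 4 methyltransferases, encoded by Kmt2c and Kmt2d. The labels do not name the driver of deletion or the strain of the recipients, and the number of mice per library was not given. All 4 groups share the transplantation, the time and the sort.

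The respiratory chain passes electrons from NADH and succinate to oxygen and pumps protons across the inner mitochondrial membrane. Complex I takes electrons from NADH, complex II from succinate, complex III passes them to cytochrome c, and complex IV passes them to oxygen. Complex V, the ATP synthase, uses the proton gradient to make ATP. Complexes I, III, IV and V are built from nuclear-encoded and mtDNA-encoded subunits, so both genomes must supply parts of the same machine, while complex II is wholly nuclear. Blood stem cells are known for keeping respiration low and for raising it when they leave quiescence.

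Expression is given as UMIs (unique molecular identifiers, each standing for 1 captured transcript) in counts per 1000000 UMIs of a library (CPM), over barcodes that held 1000 genes or more and no more than 10% mitochondrial UMIs. Levels and cell numbers are always listed with the control first, followed by the libraries labelled Mll3, Mll4 and Mll3/4, and differences are log2 ratios to the control. Between 4748 and 7274 cells were used per library, with 50792614 to 120700343 UMIs. These were 94.7%, 93.0%, 62.2% and 92.4% of the deposited barcodes. In the Mll4-labelled library 2634 of 7702 barcodes held fewer than 1000 genes and were left out. Intervals cover counting error only. Since each genotype had 1 library, replicate error is unknown for every difference, and nothing was tested for significance. A gene is called here when it differed at least 1.5-fold from control and had a mean of at least 20 CPM over the libraries. That minimum was passed by 96 members (83 nuclear and all 13 of mtDNA) and by 6125 genes in all.

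The libraries differed in more than the label. Kmt2c was at 68.9, 35.3, 61.3 and 42.3 CPM, lower in both libraries labelled for Mll3 deletion. Kmt2d was at 24.6, 21.6, 22.6 and 25.4 CPM, a range that did not set the Mll4 labels apart, so the libraries are named here by label. UMIs counted over a whole gene do not show whether a part of it was deleted. Of the stem and progenitor markers, Kit was at 215, 216, 362 and 246 CPM, whereas Cd34 was at 5.18 CPM and Mecom at 1.0 CPM in the Mll3/4-labelled library against 332 and 87.5 CPM in the control. Hlf, Slamf1 and Flt3 were lower there too, at 2.21, 1.71 and 23.5 CPM against 291, 8.39 and 64.0 CPM. Ly6a went the other way, at 255 against 93.4 CPM, and Ptprc was at 132 against 146 CPM. Cells that held markers of mast cells, monocytes and macrophages, plasma or B cells, or T and innate lymphoid cells made up 1.75%, 3.39%, 46.9% and 74.4% of the libraries. In the Mll3/4-labelled library nearly all of these cells were counted through the gene Mzb1 of the plasma and B cell list, and without that gene 4708 of its 4748 cells held no such markers. Median depth was 14454, 15381, 21400 and 8920 UMIs per cell. The parts of cell mixture and depth in the results below were not tested except where values without those cells are given.

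Together the members took a like share of all UMIs in every library, at 6.63%, 6.35%, 6.25% and 6.54%. The nuclear-encoded and the mtDNA-encoded members differed in opposite directions in the Mll4-labelled library. Nuclear-encoded members summed to 19586, 17233, 23462 and 21392 CPM, lowest in the Mll3-labelled library and highest in the Mll4-labelled library. As log2 ratios these were -0.18 (95% counting interval -0.19 to -0.18), 0.26 (95% counting interval 0.26 to 0.26) and 0.13 (95% counting interval 0.12 to 0.13). The mtDNA-encoded members summed to 46692, 46276, 39053 and 44019 CPM, with log2 ratios of -0.013, -0.26 and -0.085. The Mll4-labelled library was therefore highest for nuclear-encoded members and lowest for mtDNA-encoded members. UMIs of mtDNA-encoded members per UMI of nuclear-encoded members came to 2.38, 2.69, 1.66 and 2.06. In cells with 8000 to 16000 UMIs the nuclear difference of the Mll4-labelled library turned to -0.17, and without cells holding mature-cell markers it was 0.36. In that depth window 74.9% of its cells held mature-cell markers, against 0.822% of the control's. The 13 mtDNA genes are also the genes that the 10% limit on mitochondrial UMIs counts. Without that limit their sum differed by 0.0062, -0.22 and -0.085 in log2.

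Calls among nuclear-encoded members leaned one way in each library. In the Mll3-labelled library 26 of 83 were at least 1.5-fold lower and none was higher, where 3.54% of all genes were lower and 2.56% higher. In the Mll4-labelled library 25 were higher and 5 lower, against 10.9% and 14.3% of all genes. In the Mll3/4-labelled library 9 were higher and 1 was lower, against 11.3% and 20.8% of all genes. The count of higher members there, 10.8% of the 83, was near that background, whereas the count of lower members was under it. The median log2 ratio of the 83 members was -0.22, 0.11 and 0.11, beside medians over all genes of 0.10, -0.13 and -0.11. No nuclear member of the Mll3-labelled library was 2-fold away from control, beside 1.09% of all genes 2-fold higher and 0.457% lower. For the Mll4 label 8 were 2-fold higher and none lower, beside 4.98% and 3.28% of all genes, and in the Mll3/4-labelled library none was, beside 6.07% and 10.5%.

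Of the 83, 42 had their lowest level in the Mll3-labelled library, 36 had their highest in the Mll4-labelled library, and 23 stayed within 1.5-fold over all libraries. Scaling by TMM (trimmed mean of M values) moved the median of all genes by about 0.1 in each comparison, to -0.0016, 0.0025 and -0.0037, and the member medians to -0.33, 0.24 and 0.22. This scaling moves every gene of a library by the same amount, so the gap between members and all genes is the same under both.

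**Figure D1:**
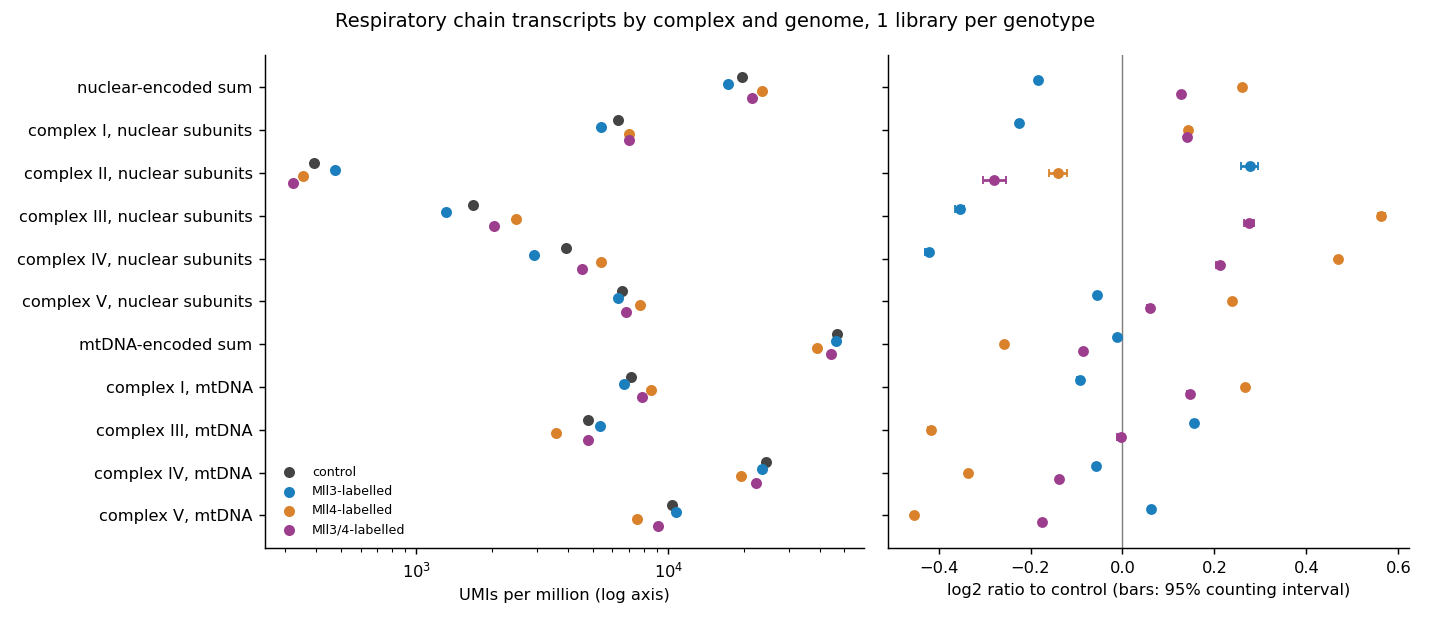
Summed UMIs per 1000000 (left, log axis) and log2 ratio to control (right) for the members of each complex by genome, with 1 point per library and bars for 95% counting intervals. Nuclear sums of complexes III and IV were lowest in the Mll3-labelled and highest in the Mll4-labelled library, complex II was highest in the Mll3-labelled library, and the mtDNA sums of complexes III, IV and V were lowest in the Mll4-labelled library.

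Complex I, the entry point for NADH, has 37 nuclear-encoded subunits among the members, assigned by symbol and so counting Ndufa4. They summed to 6302, 5390.5, 6957 and 6948 CPM, lowest in the Mll3-labelled library and nearly equal in the other mutant libraries. The log2 ratios were -0.23, 0.14 and 0.14. In the Mll3-labelled library 12 of 37 were called lower, in the Mll4-labelled library 8 higher and 3 lower, and in the Mll3/4-labelled library 6 higher and none lower. Of all genes, 3.54% were lower for the Mll3 label and 10.9% higher and 14.3% lower for the Mll4 label. For the Mll3/4 label 11.3% were higher and 20.8% lower. The 3 lower members, 8.11% of the 37, were under the share of all genes. The difference of the Mll4-labelled library was not seen in all weightings of its cells: with equal weight per cell it was -0.036, and in cells with 8000 to 16000 UMIs it was -0.29.

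Members of complex I differed among themselves in sign. Ndufb2, a small accessory subunit of the membrane arm, was at 126, 72.9, 182 and 145 CPM, lowest in the Mll3-labelled library, with a log2 ratio there of -0.79 (95% counting interval -0.83 to -0.75). Ndufa4, first described in complex I and since assigned to complex IV, was at 640.3, 371, 667 and 594 CPM, with -0.79 in the Mll3-labelled library and levels near the control in the others. Ndufa1, a membrane-arm subunit encoded on the X chromosome, was at 78.5, 49.0, 245 and 137 CPM. Its log2 ratios of -0.68, 1.64 and 0.81 put it below control in the Mll3-labelled library and among the 5 highest members of both others. Ndufa3, another small accessory subunit, was at 110.2, 72.8, 321 and 126 CPM, and only the Mll4-labelled library stood far above the control, by 1.54.

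The 5 members with the highest ratios in the Mll3/4-labelled library were all nuclear-encoded complex I subunits. Ndufs5, a subunit on the intermembrane side, was at 129.7, 91.8, 176 and 249 CPM, highest in the Mll3/4-labelled library, with 0.94 (95% counting interval 0.91 to 0.97). Ndufs6, which carries a zinc site, was at 104, 72.0, 173 and 170.0 CPM, and Ndufa2, a small subunit of the matrix arm, was at 188, 124, 318 and 308 CPM. Both were about equally high in the Mll4- and Mll3/4-labelled libraries, at 0.74 and 0.71 for Ndufs6 and at 0.76 and 0.71 for Ndufa2. Ndufa13, also known as Grim19, was at 237, 149, 283 and 385 CPM, with a log2 ratio of 0.70 in the Mll3/4-labelled library and 0.26 in the Mll4-labelled library.

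Other subunits, core and accessory, were below control in a library with an Mll4 label or above it in the Mll3-labelled library. Ndufv2, an iron-sulphur subunit of the NADH-binding module, was at 169, 215, 137 and 142 CPM, highest in the Mll3-labelled library and below control in both others, with 0.34, -0.30 and -0.26. Ndufs7, an iron-sulphur subunit next to the quinone site, was at 205, 234, 141 and 139.8 CPM, and both libraries with an Mll4 label were lower than control, by -0.54 and -0.55. Ndufs3, a core subunit of the matrix arm, was at 106, 130.1, 67.6 and 88.1 CPM, with -0.65 in the Mll4-labelled library. Ndufa8, an accessory subunit on the intermembrane side, was at 201, 240.1, 124 and 147 CPM, and was -0.70 and -0.45 in the libraries with an Mll4 label. Ndufab1, which is also the mitochondrial acyl carrier protein, was at 267, 235, 173 and 213 CPM, below control in every mutant library and by -0.62 in the Mll4-labelled one. Ndufa9, an accessory subunit near the quinone site, was at 75.7, 98.7, 57.5 and 67.8 CPM, and was higher in the Mll3-labelled library by 0.38.

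The 8 complex I assembly factors that share the Nduf prefix help to build the complex and are no part of it. They summed to 280.3, 258, 297 and 245 CPM, with log2 ratios of -0.12, 0.085 and -0.20, and 5 of the 8 passed the minimum. Ndufaf7, a methyltransferase that modifies a core subunit, was at 27.7, 30.2, 22.6 and 17.0 CPM and had the lowest ratio of all passing members in the Mll3/4-labelled library, -0.70 (95% counting interval -0.81 to -0.59). Ndufaf3 was at 25.4, 24.9, 22.2 and 38.2 CPM and was called higher in that library, at 0.59. Ndufaf2 was at 62.2, 54.1, 80.5 and 45.4 CPM, highest in the Mll4-labelled and lowest in the Mll3/4-labelled library. Ndufaf1, with a mean of 19.6 CPM, and Ndufaf6, with 19.1 CPM, lay just under the minimum.

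Complex II, succinate dehydrogenase, also works in the citric acid cycle, and its 4 subunits were highest in the Mll3-labelled library. They summed to 391, 473, 354 and 322 CPM, highest in the Mll3-labelled library, with log2 ratios of 0.28 (95% counting interval 0.26 to 0.29), -0.14 (95% counting interval -0.16 to -0.12) and -0.28 (95% counting interval -0.30 to -0.25). All 4 were above control in the Mll3-labelled library and below it in the Mll3/4-labelled library, and none was called. Of all genes, 69.0% were above control for the Mll3 label and 41.2% for the Mll3/4 label. Sdhd, a membrane anchor that binds haem, was at 101, 136, 77.7 and 67.7 CPM, the highest ratio of any passing member in the Mll3-labelled library at 0.43 and one of the lowest in the Mll3/4-labelled library at -0.57. Sdhb, the iron-sulphur subunit, was at 110.2, 139.5, 96.9 and 109 CPM, with 0.34 in the Mll3-labelled library and -0.018 in the Mll3/4-labelled library. Sdha, the flavoprotein that oxidises succinate, was at 110.5, 122, 117 and 94.0 CPM and stayed within 1.5-fold throughout.

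The 8 nuclear-encoded members in complex III, which oxidises ubiquinol, summed to 1677, 1312, 2478 and 2029 CPM. The Mll4-labelled library was highest, with log2 ratios of -0.35, 0.56 and 0.27. Its small subunits carried the difference. Uqcrq was at 185, 154, 419.7 and 249 CPM, Uqcr10 at 213, 135, 427 and 302 CPM and Uqcr11 at 217, 149, 477 and 266 CPM, and all were lowest in the Mll3-labelled and highest in the Mll4-labelled library. The larger core subunits differed. Uqcrc2 was at 141, 173, 131 and 115 CPM, highest in the Mll3-labelled library, and Uqcrc1 at 84.5, 93.7, 134 and 73.3 CPM, highest in the Mll4-labelled library at 0.67. Uqcrfs1, the Rieske iron-sulphur protein, was at 129, 158, 105 and 142 CPM. Cyc1, a further subunit, is outside the symbol rule and is counted below with the electron carriers. It was at 130, 162, 109 and 113 CPM. Called members numbered 3 lower of 8 in the Mll3-labelled library, 4 higher in the Mll4-labelled library and none in the Mll3/4-labelled library. Of all genes 3.54% were lower for the Mll3 label and 10.9% higher for the Mll4 label. For the Mll3/4 label 11.3% of all genes were higher and 20.8% lower.

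Complex IV, cytochrome c oxidase, had the lowest nuclear ratio of any complex in the Mll3-labelled library. Its nuclear subunits, without Ndufa4, summed to 3905, 2915, 5407 and 4522 CPM, with log2 ratios of -0.42, 0.47 and 0.21. Of the 11 that passed the minimum, all were below control in the Mll3-labelled library and 7 were called lower. Of all genes, 69.0% were above control in that library. For the Mll4 label 7 were called higher, and in the Mll3/4-labelled library 1 was. Of all genes 3.54% were lower for the Mll3 label, and 10.9% and 11.3% were higher for the Mll4 and Mll3/4 labels. The 1 higher member of the Mll3/4-labelled library, 9.09% of the 11, was near that background. Cox6a1, a regulatory subunit, was at 137, 80.9, 245 and 171 CPM, lowest in the Mll3-labelled library by -0.76 and highest in the Mll4-labelled library by 0.84. Cox6b1, on the intermembrane side, was at 294, 175, 450.4 and 372 CPM and Cox8a, a small membrane subunit, at 617, 368, 812 and 708 CPM, with -0.75 and -0.74 in the Mll3-labelled library. Cox4i1, the ATP-sensing subunit, was at 803, 799.7, 666 and 739 CPM, and Cox5a was at 420.2, 412, 332 and 455 CPM, and both stayed within 1.5-fold in all libraries. Cox7a2l, which links complexes III and IV into supercomplexes and is counted apart from the subunits, was at 496, 591, 265 and 515 CPM. Its ratio of -0.90 (95% counting interval -0.92 to -0.88) was the lowest of any passing member in the Mll4-labelled library, while the Mll3-labelled library was higher than control and the Mll3/4-labelled library was close to it.

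The tissue-specific isoforms of complex IV were mostly near 0. Cox4i2, the lung-type partner of Cox4i1 that is induced by low oxygen, had 218, 596, 57 and 24 UMIs, and so stood higher in the Mll3-labelled library and lower in both libraries with an Mll4 label. Its log2 ratios were 1.62, -1.94 and -1.92, at levels under the 20 CPM minimum. Cox6a2, the heart and muscle partner of Cox6a1, had 389, 140, 322 and 17 UMIs, below control in every mutant library. Cox7a1, the heart and muscle partner of Cox7a2, had 76, 77, 248 and 65 UMIs. These counts are not scaled, and the libraries held 119328763, 105907176, 120700343 and 50792614 UMIs. The 65 UMIs therefore do not place the Mll3/4-labelled library below control. Cox7b2 had 3 UMIs in the control and 0 elsewhere, Cox8b had 1, 1, 2 and 0, Cox8c had 0, 1, 1 and 0, and Ndufa4l2 had 5, 6, 7 and 0, so no difference was detectable for these at this depth. Cox6b2, the testis-type partner of Cox6b1, did pass the minimum, at 34.7, 31.4, 66.7 and 29.3 CPM, highest in the Mll4-labelled library by 0.94. The common isoforms Cox7a2 and Cox7b were at 224, 137, 337 and 346 CPM and at 233, 144, 427 and 309 CPM, both lowest in the Mll3-labelled library.

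Complex V, the ATP synthase, had 17 nuclear-encoded subunits that summed to 6535, 6293, 7703 and 6812 CPM, with log2 ratios of -0.054, 0.24 and 0.060. In the Mll3-labelled library 4 were called lower, in the Mll4-labelled library 6 higher and 1 lower, and in the Mll3/4-labelled library 1 higher. Of all genes 3.54% were lower for the Mll3 label and 10.9% higher and 14.3% lower for the Mll4 label. For the Mll3/4 label 11.3% of all genes were higher. The single calls, each 5.88% of the 17, were under those shares. The subunits of complex V did not share 1 order of libraries. Atp5b, the catalytic beta subunit, was at 562, 697, 578 and 525 CPM and Atp5a1, the alpha subunit, at 446, 515, 453 and 373 CPM, both highest in the Mll3-labelled library. Atp5k, the small e subunit that holds synthase dimers together, was at 145, 114, 520.1 and 187 CPM, with 1.84 (95% counting interval 1.82 to 1.87) in the Mll4-labelled library, the highest ratio of any passing nuclear-encoded member there. Atp5md and Atp5mpl, further small subunits of the membrane part, were at 144, 96.1, 366 and 188 CPM and at 127, 86.6, 369 and 169 CPM, in the same order of libraries. Atp5d, the delta subunit of the central stalk, was at 405, 496, 270.0 and 366 CPM, highest in the Mll3-labelled and lowest in the Mll4-labelled library, at -0.59. The genes Atp5g1, Atp5g2 and Atp5g3 encode the same mature c subunit of the rotor ring. Atp5g1 was at 387, 318, 446 and 312 CPM, Atp5g2 at 776, 725, 591 and 714 CPM and Atp5g3 at 302, 325, 251 and 302 CPM, and each stayed within 1.5-fold of the control in every library.

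The 13 mtDNA-encoded members are transcribed as long precursors from both strands and cut at the tRNAs between them, so their levels share a source. All 13 passed the minimum. In complex I, the 7 mtDNA subunits summed to 7089.8, 6646, 8531 and 7844 CPM. All 7 were above control in both libraries with an Mll4 label and below it in the Mll3-labelled library. Of all genes, 69.0%, 38.2% and 41.2% were above control for the Mll3, Mll4 and Mll3/4 labels. In the other complexes the Mll4-labelled library was lowest. The haem-bearing core of complex III, mt-Cytb, was at 4799, 5348, 3596 and 4785 CPM, and the 3 catalytic-core subunits of complex IV summed to 24493, 23518, 19401 and 22257 CPM. The mtDNA subunits of complex V summed to 10310.1, 10765, 7524 and 9133 CPM, of which mt-Atp6 gave nearly all. In the Mll4-labelled library these had log2 ratios of -0.42, -0.34 and -0.45, against 0.27 for complex I. The 7 complex I genes ranged there from 0.031 for mt-Nd4 to 2.50 for the short mt-Nd3, with a median of 0.22. Within the surface gates described below, their sum was near control in HSC, at -0.0074, and in MPP1, at 0.0065. In MPP2 it was 0.18.

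Among the mtDNA genes called, the shortest ones stood out. Of the 13, 3 were called higher in the Mll4-labelled library, 2 in the Mll3/4-labelled library and none in the Mll3-labelled library, beside 10.9%, 11.3% and 2.56% of all genes. The count of the Mll3/4-labelled library was near that background. The shortest is mt-Atp8, 204 nt at chrM:7766-7969 (GRCm38, plus strand), which encodes a small membrane subunit of ATP synthase. Its last 43 bases, in capitals, also belong to mt-Atp6, which is translated from the same RNA. The next is mt-Nd4l, 297 nt at chrM:9877-10173 (plus strand), which encodes a small membrane subunit of complex I and shares its last 7 bases, in capitals, with mt-Nd4. Both are printed whole because reads from such joined RNAs may be counted to either gene or to neither.
mt-Atp8: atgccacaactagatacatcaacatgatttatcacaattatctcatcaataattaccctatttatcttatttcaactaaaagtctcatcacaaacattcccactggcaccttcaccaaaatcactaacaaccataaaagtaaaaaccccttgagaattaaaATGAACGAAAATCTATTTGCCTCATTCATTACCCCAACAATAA
mt-Nd4l: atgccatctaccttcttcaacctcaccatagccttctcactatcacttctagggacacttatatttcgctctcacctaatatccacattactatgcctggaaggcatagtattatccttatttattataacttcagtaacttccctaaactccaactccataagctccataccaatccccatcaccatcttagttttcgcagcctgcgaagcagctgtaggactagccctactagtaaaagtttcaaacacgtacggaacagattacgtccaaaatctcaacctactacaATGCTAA

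The level of mt-Atp8 was 120.2, 87.0, 572 and 158 CPM, with log2 ratios of -0.47, 2.25 and 0.39. Its partner mt-Atp6 was at 10189.9, 10678, 6952 and 8976 CPM, lowest in the Mll4-labelled library at -0.55, where mt-Atp8 was highest. For mt-Nd4l the level was 216, 145, 494 and 333 CPM, with log2 ratios of -0.57, 1.19 and 0.62, while mt-Nd4, on the same RNA, was at 2130.1, 2083, 2177 and 2174 CPM, nearly level across libraries. The next gene by length, mt-Nd3, is not joined to a neighbour and had the highest ratio of any passing member: it was at 128, 87.9, 722 and 206 CPM, with 2.50 (95% counting interval 2.48 to 2.53) in the Mll4-labelled library. The only member on the other mtDNA strand, mt-Nd6, was at 52.9, 36.1, 61.5 and 66.6 CPM, lowest in the Mll3-labelled library.

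The remaining mtDNA genes differed less. In complex I, mt-Nd1 was at 1950.2, 1911, 2109.8 and 2319 CPM, mt-Nd2 at 2020.3, 1844, 2279.7 and 2113 CPM and mt-Nd5 at 592, 537, 688 and 632 CPM, each above control in both libraries with an Mll4 label. In complex IV, mt-Co1 was at 7183, 6803, 6482 and 6206 CPM, mt-Co2 at 6974, 6358, 5614 and 6719.5 CPM and mt-Co3 at 10336, 10357, 7305 and 9331 CPM, each below control in those libraries. Over the 13, 8 stayed within 1.5-fold across all libraries.

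**Figure D2:**
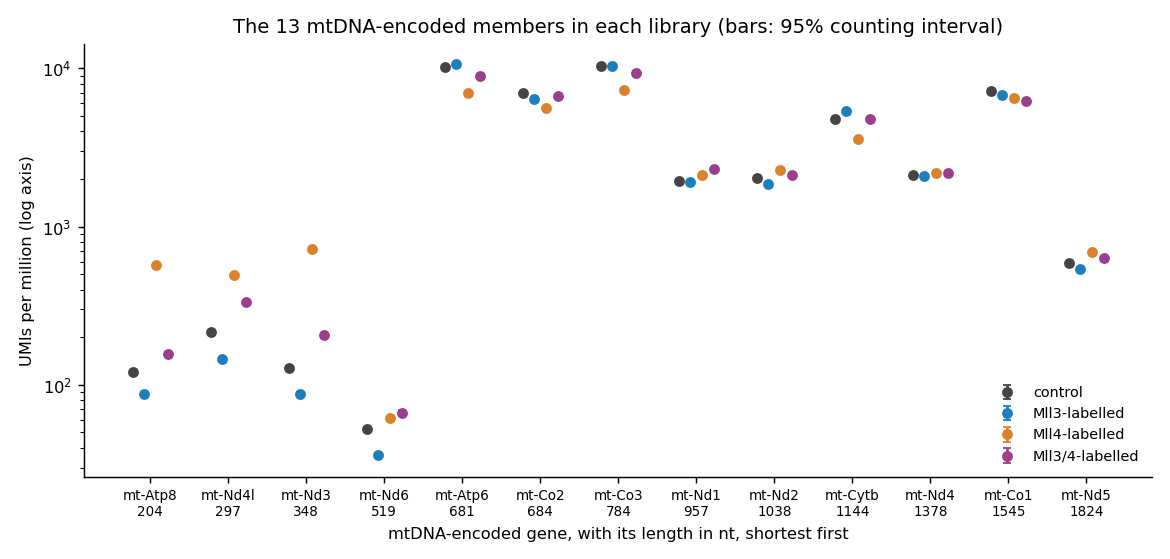
Level of each mtDNA-encoded member in the 4 libraries as UMIs per 1000000 (log axis), ordered by gene length, with bars for 95% counting intervals. The 3 shortest genes spread most, with mt-Nd3 from 87.9 to 722 CPM, and all 4 genes up to 600 nt were lowest in the Mll3-labelled library.

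The order of member ratios followed the length of the transcript in every comparison. Across the 83 passing nuclear members, Spearman's rho between the length of the main annotated transcript and the log2 ratio came to 0.66, -0.59 and -0.51 for the libraries labelled Mll3, Mll4 and Mll3/4. With coding length, known for 79 of them, it was 0.80, -0.72 and -0.61. These are descriptions across genes of the same libraries, and genes are not independent replicates. The 3 comparisons share the control library.

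Over whole libraries the nuclear sums had the sign of the short members. This did not hold in every depth range of the Mll4-labelled library. In its cells from 8000 to 16000 UMIs, short members were at 8285 CPM against 7170 CPM in the control. The nuclear sum of these cells was lower, at 16030 against 17995 CPM. The 33 nuclear members with transcripts up to 600 nt summed to 7829.8, 5429.6, 12136 and 9375 CPM, with log2 ratios of -0.53, 0.63 and 0.26. The 30 with transcripts over 1000 nt summed to 4922, 5421, 4516 and 4769 CPM. Their ratios of 0.14, -0.12 and -0.045 had the opposite sign in each library. Medians over all genes had the same signs as these long members, at 0.10, -0.13 and -0.11. Set against other genes of like transcript length, as described below, the 27 passing long members had medians of 0.083, 0.035 and -0.051. Under TMM scaling, the long members' ratios in the Mll4- and Mll3/4-labelled libraries became 0.0060 and 0.063, so their direction there depended on the scaling. Of 38 passing nuclear members that code for at most 400 nt, 37 were below control in the Mll3-labelled library. The Mll4-labelled library had 35 above control, and in the Mll3/4-labelled library 34 were. Of 380 other genes coding for at most 400 nt, 227 were below, 159 above and 182 above control in the same libraries. Median ratios of the 38 members were -0.61, 0.73 and 0.37. The 41 members coding for more than 400 nt had medians of 0.13, -0.19 and -0.12.

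Genes outside the respiratory chain showed no like trend over all lengths, with rho of -0.14, 0.15 and 0.13 for 5945 genes that are neither members nor cytosolic ribosomal protein genes. Up to 1000 nt, rho over 756 such genes had the members' sign, at 0.47, -0.27 and -0.13. The members' rho was taken over all lengths, so the sizes are not on a like range. Among them, the 51 with transcripts over 400 and up to 500 nt had median ratios of -0.64, 0.66 and 0.055, beside -0.59, 0.92 and 0.25 for the 10 members of that length. For the 87 other genes over 500 and up to 600 nt the medians were -0.31, 0.027 and -0.013, beside -0.62, 0.58 and 0.33 for 16 members. Over the 81 passing cytosolic ribosomal protein genes, rho with coding length was 0.79, -0.83 and -0.75. The members were, however, not at the level of all short-coding genes: 380 other genes coding for at most 400 nt had medians of -0.13, -0.11 and -0.019.

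When each gene's ratio was set against the median of other genes of like transcript length, a step chosen after seeing the data, the counts shrank in the Mll3-labelled library. There 10 of 83 nuclear members were at least 1.5-fold lower and none higher, against 2.91% and 1.94% of 6122 genes measured the same way. In the Mll4-labelled library 23 were higher and 3 lower, against 13.1% and 7.58%, and in the Mll3/4-labelled library 13 were higher and none lower, against 13.6% and 17.2%. Centring on coding length instead gave 12 lower and none higher in the Mll3-labelled library, beside 3.58% and 2.05% of 4585 genes. It gave 27 higher and 1 lower in the Mll4-labelled library, beside 14.2% and 7.33%, and 10 higher and none lower in the Mll3/4-labelled library, beside 13.6% and 17.1%. Medians of the ratios centred on transcript length were -0.070, 0.19 and 0.17, and centred on coding length -0.20, 0.40 and 0.23. For complex IV the medians were -0.44, 0.82 and 0.34 by transcript length and -0.51, 0.69 and 0.23 by coding length. For complex III they were 0.041, 0.33 and 0.30, and -0.044, 0.55 and 0.36, so the sign in the Mll3-labelled library depended on the kind of length. For complex II they were 0.11, 0.045 and -0.27, and 0.11, 0.11 and -0.21, beside uncentred medians of 0.24, -0.16 and -0.33. For complex I they were -0.15, 0.15 and 0.20, and -0.36, 0.18 and 0.23. Those of complex V were 0.040, 0.18 and 0.078, and -0.037, 0.21 and 0.19. Whether the trend with length comes from the cells or from the libraries was not tested.

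**Figure D3:**
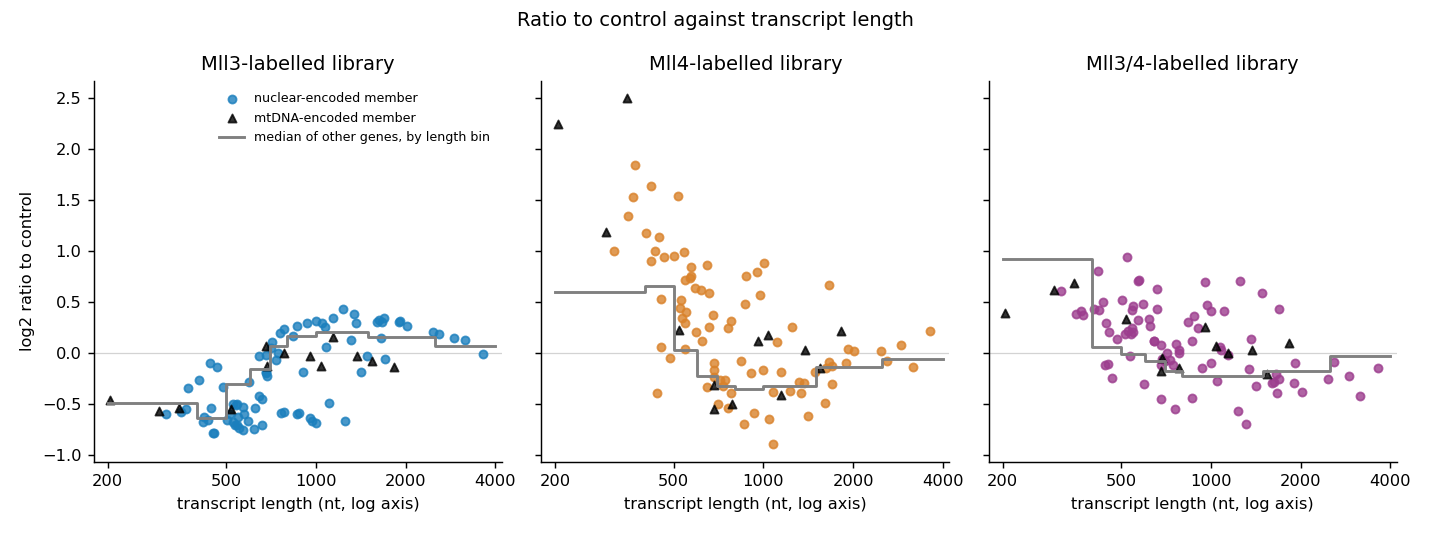
Log2 ratio to control of each passing member against the length of its main transcript (log axis), with circles for nuclear-encoded and triangles for mtDNA-encoded members and a grey line for the median of other genes in each length bin. Short members lie below 0 in the Mll3-labelled library and mostly above 0 in the other libraries, where the median of members between 500 and 600 nt lies above that of other genes.

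Surface gates set from the antibody counts split the cells into fractions, each with at least 109 cells in every library. They carry the names of stem-cell (HSC) and progenitor (MPP1 to MPP4) gates. They were defined by CD150, CD48 and CD135 alone, so the names stand for surface marks and not for checked cell types. In the whole Mll3/4-labelled library Mecom was at 1.0 CPM, and 46.9% of cells in the Mll4-labelled library held mature-cell markers. CD135 and the other antibodies form graded signals, so these gates divide a continuum. Nuclear-encoded members were below control in the Mll3-labelled library in all 5 gates, with log2 ratios of -0.11 in HSC, -0.13 in MPP1, -0.18 in MPP2, -0.15 in MPP3 and -0.19 in MPP4. In the Mll4-labelled library the ratios in the same order were 0.19, 0.20, 0.14, 0.27 and -0.0094, so MPP4 was near the control. In the Mll3/4-labelled library they were 0.21, 0.34, -0.057, 0.059 and 0.19. The gates were not matched for depth. Median UMIs per cell were 11737, 14652, 24880 and 7944 in HSC and 11360, 13026, 23514 and 8410 in MPP1. In MPP2 they were 20620, 22403.5, 32578 and 7030. The part of depth in the gate ratios was not tested.

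Within the gates short and long members also differed in sign in the Mll3- and Mll4-labelled libraries. Members with transcripts up to 600 nt were below control in the Mll3-labelled library by -0.46 to -0.54 in log2 and above it in the Mll4-labelled library by 0.37 to 0.64, over the 5 gates. Members over 1000 nt were above control in the Mll3-labelled library by 0.14 to 0.20 and below it in the Mll4-labelled library, from -0.12 to -0.42. The mtDNA-encoded sum of the Mll4-labelled library was below control in every gate, from -0.20 in MPP3 to -0.43 in MPP4. Complex II was above control in the Mll3-labelled library in each gate, from 0.25 in MPP2 to 0.36 in MPP3.

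**Figure D4:**
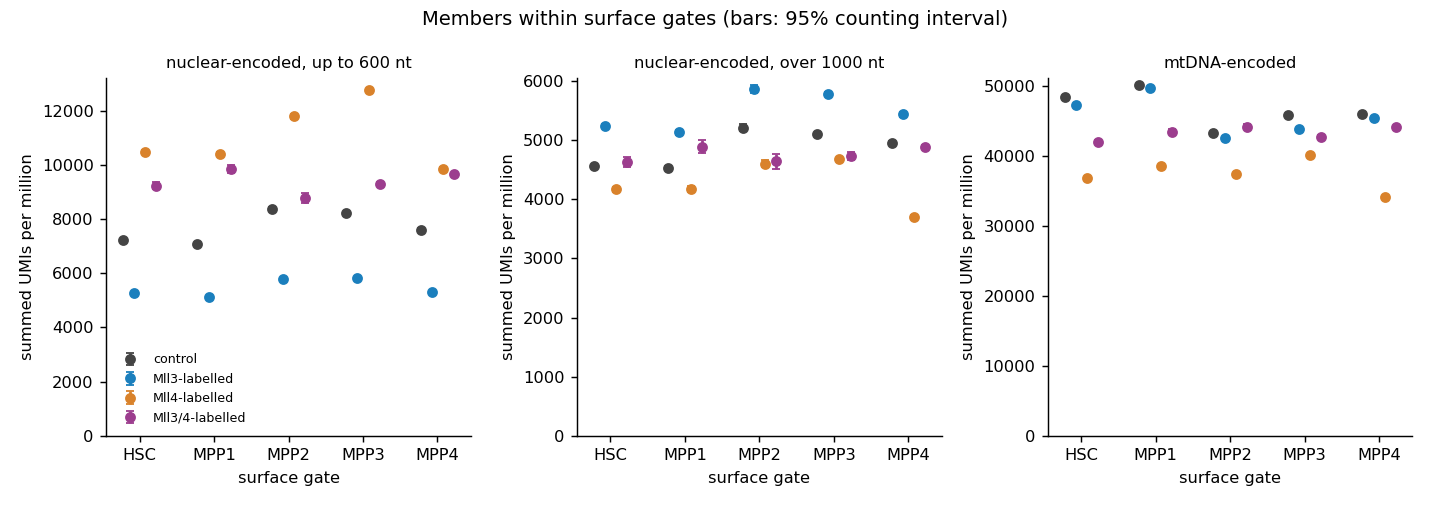
Summed UMIs per 1000000 of nuclear-encoded members with transcripts up to 600 nt (left) and over 1000 nt (middle) and of mtDNA-encoded members (right) in 5 surface gates, with 1 point per library and bars for 95% counting intervals. In every gate the Mll3-labelled library is lowest for short members and highest for long ones, and the Mll4-labelled library is lowest for mtDNA-encoded members.

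Shares were also taken cell by cell. After thinning each cell to 3000 UMIs, which left out 14, 17, 134 and 33 shallower cells, nuclear-encoded members took a median of 1.87%, 1.63%, 1.90% and 2.0% of a cell's UMIs. Without thinning the medians were 1.87%, 1.65%, 1.92% and 2.02%. In the Mll3-labelled library 26.9% of cells lay above the control median, in the Mll3/4-labelled library 61.3% did and in the Mll4-labelled library 51.1% did, against 49.1% in the control itself. The Mll4-labelled library had the widest spread, from 0.967% at the 5th percentile to 3.27% at the 95th, against 1.27% to 2.60% in the control, while its median was close to the control's, so the higher sum of that library was not seen in its median cell. For mtDNA-encoded members the medians were 4.77%, 4.77%, 3.83% and 4.40%, and in the library labelled Mll4 only 17.1% of cells exceeded the median of the control.

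**Figure D5:**
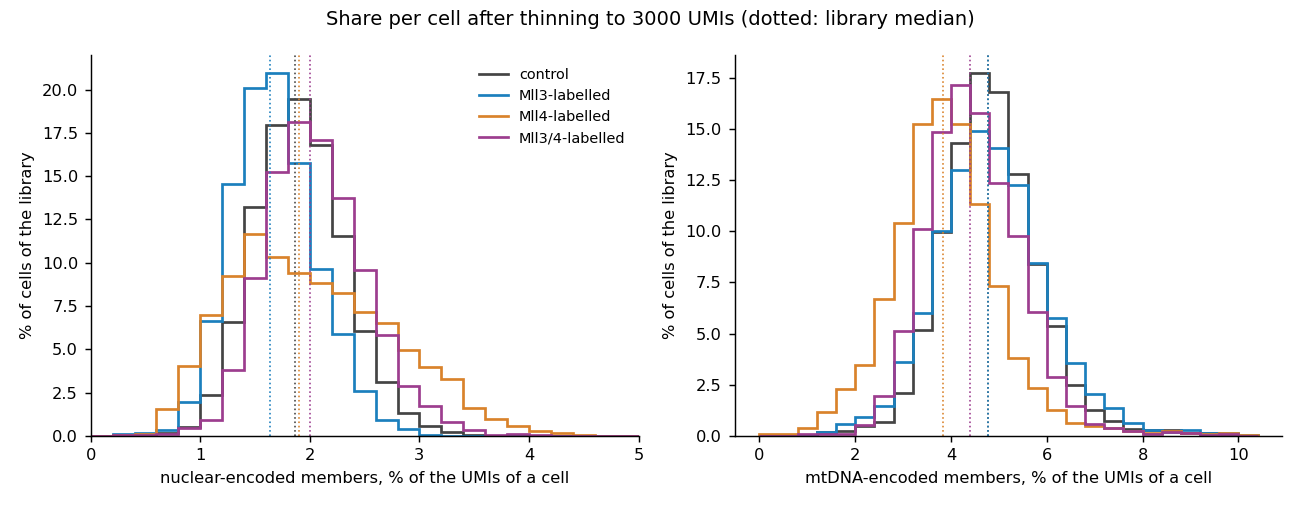
Share of a cell's UMIs from nuclear-encoded (left) and mtDNA-encoded (right) members after thinning to 3000 UMIs, as the percent of cells of each library, with dotted lines at the medians. The Mll3-labelled library lies left of the control for nuclear-encoded members, and the Mll4-labelled library is broadest there and lies left of the control for mtDNA-encoded members.

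The broad spread of the Mll4-labelled library went with cell mixture and depth. In that library cells without mature-cell markers numbered 2543, had a median of 33024 UMIs and held nuclear-encoded members at 25255 CPM. Cells with mast cell markers were at 22850 CPM, those with T and innate lymphoid markers at 17643 CPM, those with monocyte and macrophage markers at 13964 CPM and those with plasma or B cell markers at 12358 CPM. The summed level of the 9 mast cell markers was 26.4, 8.96, 1615 and 1.75 CPM, and that of the 11 monocyte and macrophage markers 18.2, 17.2, 679.96 and 8.15 CPM. For the 9 plasma and B cell markers it was 2607, 4335, 10444 and 2488 CPM, and for the 11 T and innate lymphoid markers 24.2, 79.6, 65.0 and 15.5 CPM. None of these markers was at 0 in the Mll4-labelled library, whereas 8 of the 9 mast cell markers were at 0 in the Mll3/4-labelled library and 3 in the control. For mtDNA-encoded members the cells without mature-cell markers were at 39709.5 CPM, below the control's 46884 CPM for such cells, so the lower mtDNA level was also present there.

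Depth per cell moved with the nuclear-encoded members in every library. In the control their level was 16068 CPM in cells up to 8000 UMIs, 17995 CPM from 8000 to 16000, 20563 CPM from 16000 to 32000 and 21347 CPM above that. The Mll3-labelled library was lower in each of these depth ranges, at 13631, 15720, 18059 and 18347 CPM. The Mll3/4-labelled library was higher in the 3 shallower ranges, at 18763, 21391 and 22912 CPM, and its 54 cells in the deepest range, under a minimum of 100, were not compared. The Mll4-labelled library was lower than control in the 3 shallower ranges, at 14410, 16030 and 19910 CPM, and higher in the deepest, at 26575 CPM. The deepest range held 32.4% of its cells against 3.99% of the control's, and the share of its cells with mature-cell markers went over the ranges from 95.8% to 13.4%.

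Other gene lists of the mitochondrion were compared with the members. The 16 citric acid cycle enzymes, which supply NADH and succinate, summed to 1289.5, 1512, 1249.9 and 1010.2 CPM, with log2 ratios of 0.23, -0.045 and -0.35. Of them 15 were above control in the Mll3-labelled library, where 69.0% of all genes were, and none was called there. In the Mll3/4-labelled library 3 were called lower, a share near the 20.8% of all genes there. Suclg1, a subunit of succinyl-CoA ligase, was the lowest there, at 194, 225, 123 and 98.8 CPM. The mobile electron carriers and the coenzyme Q pathway, 10 of 20 genes passing, summed to 1179, 1373, 1144 and 823 CPM, with 0.22, -0.042 and -0.52, and 5 were called lower in the Mll3/4-labelled library, beside the same 20.8%. Coq2, which joins the ring and tail of coenzyme Q, was the lowest of the passing genes there, at 56.2, 66.3, 40.2 and 24.8 CPM. Cycs, cytochrome c itself, was at 193, 155, 232 and 215 CPM, the lowest of the passing genes in the Mll3-labelled and the highest in the Mll4-labelled library.

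The mitochondrial ribosome, which translates the 13 mtDNA genes, gave a median log2 ratio of 0.15, -0.34 and -0.29 over 74 passing genes of 78. The ratios of its sum, the measure used for the other lists, were 0.023, -0.22 and -0.28. Called genes there numbered 4 lower for the Mll3 label, beside 3.54% of all genes. For the Mll4 label 2 were higher and 8 lower, and for the Mll3/4 label 1 was higher and 9 lower, and all of these counts were smaller than the shares of all genes, 10.9% and 14.3%, and 11.3% and 20.8%, would give. Carriers and porins of the mitochondrial membranes summed to 2409, 3008, 2054 and 1985 CPM, with 0.32, -0.23 and -0.28. Factors for copying and expressing mtDNA, 9 of 20 passing, had sums with ratios of 0.11, -0.093 and -0.28. Slirp, which stabilises mtDNA-encoded messenger RNAs, was at 57.5, 38.6, 115 and 60.4 CPM, with -0.58 in the Mll3-labelled library, the lowest of the passing genes there and the highest in the other libraries. Assembly factors of other names, 21 of 35 passing, had sums with ratios of -0.073, -0.015 and -0.12. The medians of the passing genes were 0.11, -0.14 and -0.22, so the sign for the Mll3 label depended on the measure. Cox17, the copper chaperone of complex IV, was at 105, 70.2, 225 and 150.0 CPM, the highest of the passing genes in both libraries with an Mll4 label. For the Mll3 label Cox17 was at -0.58, and Uqcc2 and Cox20, assembly factors of complexes III and IV, were called lower at -0.75 and -0.66, as low as the short subunits. Genes listed as regulators of mitochondrial biogenesis, 7 of 13 passing, had sums with ratios of 0.12, 0.0064 and 0.064. Hif1a was the highest of the passing genes in both libraries with an Mll4 label, at 37.2, 40.01, 65.5 and 72.0 CPM. Ppargc1a, named after its values were seen, lay under the minimum at 1.67, 1.51, 0.398 and 7.62 CPM. Its log2 ratios were -0.14, -2.06 and 2.19.

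Among genes of these lists that passed the minimum, the widest difference was in Ucp2, an uncoupling-family carrier of the inner membrane. It was at 192, 249, 332 and 1184 CPM, highest in the Mll3/4-labelled library, with log2 ratios of 0.38, 0.79 and 2.63.

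Promoters were compared because the nuclear genes of the chain are known to be bound by NRF1, by GABP of the ETS family and by YY1. Of the 93 nuclear members, 76 were matched to RefSeq promoters (GRCm38.p6, 250 bases before to 50 after the gene start, 300 in all). The NRF1 motif, 10 letters with any base allowed at the sixth, was found on either strand in 25% of these members and in 5.19% of 27025 genes. Those 27025 are all genes with such a promoter, whether or not they were expressed here. The ETS core CCGGAAG was in 25% and 9.93%, and the YY1 core AAGATGGCG in 10.5% and 1.64%. The last letters of the ETS core, AAG, are the first of the YY1 core, so the matches can overlap. Among members that code for at most 400 nt, 21.2% of 33 had the NRF1 motif, against 29.4% of 34 that code for more. For the ETS core the shares were 36.4% and 17.6%, and for the YY1 core 15.2% and 5.88%. These matches are letters in a window, and binding was not measured. The promoter of Ndufs5, the member with the highest ratio in the Mll3/4-labelled library, is shown as an example at chr4:123718235-123718324 (minus strand, from 138 to 49 bases before the RefSeq start, overlapping no annotated exon), with its match to the NRF1 motif in capitals.
Ndufs5: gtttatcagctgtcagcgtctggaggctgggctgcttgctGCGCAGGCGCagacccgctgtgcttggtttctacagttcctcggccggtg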

How the data were processed

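Expression was measured by droplet single-cell RNA-seq with antibody tags (10x Genomics Chromium 3' chemistry version 3.1, per the labels' protocols). The deposited values were raw UMI counts per gene and barcode, written by Cell Ranger 6.1.1 per the file headers, on mm10 per the submitters' processing notes. The filter that chose the deposited barcodes is not given in the sources used here. Groups came from the sample titles.

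Counts were summed over kept barcodes, scaled to CPM over all genes, and compared with control as log2 ratios after adding 0.5 UMIs. Intervals were exact Poisson for levels and exact binomial (Clopper-Pearson) for ratios, at 95%. No doublets were removed. Scrublet (scanpy 1.11.5) called 3, 6, 200 and 10 cells, and an alternative removed the highest scores, 423, 298, 184 and 180 cells. Libraries shared 7 to 14 barcodes per pair. Cell-marker rule: at least 10 UMIs of a list per 10000 and at least 3 UMIs. Gates used centred log ratios of the 6 antibodies with 1 threshold each for all libraries. Lengths and coordinates are from GENCODE M21 (GRCm38, the assembly of mm10), for the principal transcript. TMM factors came from edgeR 4.0.16, for scaling only. Scripts were tested on simulated data.

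The named genes were the 5 highest and 5 lowest ratios per comparison among passing members, all mtDNA members, the paralogue pairs, and the highest and lowest gene of each other list, of which some are printed. Other members are named to describe their complex and were chosen after their values were seen. The members and lists were chosen with earlier results of these data known. Alternatives covered scaling, the library total, cell filters, doublets, cell weight, mature-cell markers, depth, the expression minimum and the fold. Some genes of the lists are not reported here.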

Additional observations from a re-analysis of the deposited data

How the results depend on the processing

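No paired analysis was possible because each genotype had 1 library and no test was run, and for the same reason no replicate could be left out. Values below are log2 ratios to control for the Mll3-, Mll4- and Mll3/4-labelled libraries, first of the nuclear-encoded and then of the mtDNA-encoded sum, which were -0.18, 0.26 and 0.13, and -0.013, -0.26 and -0.085 as reported. With TMM scaling they were -0.29, 0.39 and 0.24, and -0.12, -0.13 and 0.023. With mitochondrial and ribosomal protein genes out of the total they were -0.27, 0.21 and 0.063, and -0.10, -0.31 and -0.15. With limits of 500 genes and 20% mitochondrial UMIs they were -0.19, 0.26 and 0.12, and -0.0079, -0.24 and -0.072. With limits of 2000 genes and 5% they were -0.18, 0.21 and 0.087, and -0.060, -0.18 and -0.066. Without a limit on mitochondrial UMIs they were -0.19, 0.25 and 0.13, and 0.0062, -0.22 and -0.085. After removing the highest doublet scores they were -0.19, 0.26 and 0.13, and -0.0073, -0.25 and -0.084. With equal weight per cell they were -0.18, 0.074 and 0.11, and -0.0011, -0.30 and -0.11. Without cells holding mature-cell markers they were -0.19, 0.36 and 0.19, and -0.0098, -0.24 and -0.15. In cells with 8000 to 16000 UMIs they were -0.20, -0.17 and 0.25, and 0.026, -0.41 and -0.18. With the mitochondrial limit alone raised to 20% they were -0.19, 0.26 and 0.12, and -0.0074, -0.24 and -0.077. Without marker cells when Mzb1 was not used they were -0.18, 0.36 and 0.12, and -0.012, -0.24 and -0.089. Over members with transcripts above 1000 nt alone they were 0.14, -0.12 and -0.045, and -0.0095, -0.14 and -0.072. The last of these, the alternative without Mzb1, the raised mitochondrial limit and both kinds of length centring were chosen after seeing the data. Changes of sign are in these values, and the cause was not tested.

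Counts of called nuclear members moved by more than 1.5 times as follows. At 2-fold, lower members numbered 0 in every library and higher members 8 for the Mll4 label and 0 for the Mll3/4 label. In the Mll3-labelled library the 26 lower members became 10 when centred on transcript length and 12 when centred on coding length. For the Mll4 label the 5 lower members became 1 with TMM, 9 with equal weight per cell, 29 in the depth window, 2 without mature-cell marker cells with or without Mzb1, 3 when centred on transcript length and 1 when centred on coding length, and the 25 higher ones became 7 in the depth window. In the Mll3/4-labelled library the 9 higher members became 15 in the depth window, and the 1 lower member became 4 with the stricter cell filter, 3 with mitochondrial and ribosomal protein genes out of the total, 2 without marker cells with or without Mzb1, 2 at a minimum of 5 CPM, and 0 at 100 CPM or when centred on either length.

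Sums of smaller groups changed sign in 23 cases. In the Mll3-labelled library the mtDNA sum of complex V became -0.040 with TMM and -0.022 without mitochondrial and ribosomal protein genes in the total. The mtDNA members of 600 to 1000 nt became 0.013 without the mitochondrial limit, 0.0054 with equal weight per cell and 0.035 in the depth window, and those over 1000 nt became 0.0081, 0.0006 and 0.023. For the Mll4 label, nuclear complex I became -0.036 with equal weight and -0.29 in the depth window, nuclear complex V became -0.17 in the depth window, and the complex I assembly factors became -0.10 and -0.50 under the same 2 settings as complex I. The nuclear members of 600 to 1000 nt became 0.12 with TMM, 0.097 without marker cells and 0.096 with Mzb1 not used, and those over 1000 nt became 0.0060 with TMM. In the Mll3/4-labelled library, nuclear complex V became -0.0039 without mitochondrial and ribosomal protein genes in the total. With TMM, nuclear members that are no subunits became 0.077, mtDNA members of 600 to 1000 nt 0.0010, those over 1000 nt 0.036, and nuclear members over 1000 nt 0.063. The last group was 0.052 in the depth window. Depth limits the isoforms with fewer than 10 UMIs per library, for which no difference could be seen.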
